A study of Homo sapiens with 8 samples.

Results

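Heat shock proteins and co-chaperones were followed in BEAS-2B cells, which are immortalised human cells of the bronchial epithelium, during and after exposure to nickel. The 10 genes, taken by symbol from the 25411 genes listed for each library, were HSPA1A, HSPA1B, HSPA8, HSP90AA1, HSPH1, HSPB1, HSPD1, HSPE1, DNAJB1 and BAG3, and each of them was measured in all 8 libraries. They were chosen by function, at a time when earlier results of these data were known. RNA-Seq had been performed on 4 groups of 2 biological replicates, all of the same cell line. UT cells received no treatment, and Ni-E cells were harvested after 6 weeks in 100 µM NiCl2. Ni-W cells had the same exposure, after which colonies grown from single cells were expanded in nickel-free medium, and the population studied had been kept for more than 6 months. HCl3 cells carried the treatment text of Ni-W, with no time given for the nickel-free period and no statement of how HCl3 and Ni-W were related. Ni-W therefore stood for 1 randomly picked population, so that a change after wash-out and a property of the founding cell cannot be told apart. Experiment numbers were given for Ni-E (2 for both libraries) and HCl3 (3 and 4) and not for the other groups, so experiment and group cannot be told apart either.

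Chaperones of the HSP70 family bind unfolded stretches of protein and release them in cycles of ATP hydrolysis. J-domain proteins such as DNAJB1 start the cycle by delivering clients, and nucleotide exchange factors such as HSPH1 (HSP110) and BAG3 end it. HSP90 finishes the folding of kinases and receptors, the small protein HSPB1 (HSP27) holds unfolded clients without ATP, and HSPD1 with its lid HSPE1 forms the folding chamber of mitochondria. Under proteotoxic stress the transcription factor HSF1 binds heat shock elements, which are repeats of the unit NGAAN in alternating orientation, and raises many of these genes together.

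Counts in a library summed to between 26383920 and 45692298 reads, and every value of the 10 genes rested on at least 1653 reads. Among the epithelial markers KRT8, KRT18, KRT19, KRT7, EPCAM, CDH1 and KRT5, 4 of 7 reached 1 RPKM (mapped reads scaled to gene length and library size) in some library. CDH1 and KRT5 were among those that did not. Their summed level was 602 to 636 RPKM in UT, 579 to 794 in Ni-E, 947 to 972 in Ni-W and 935 to 996 in HCl3. Of the fibroblast markers 2 of 5 reached 1 RPKM, with DCN at 0 in every library and a summed level of 338 to 390 RPKM in UT, 178 to 337 in Ni-E, 218 to 246 in Ni-W and 434 to 456 in HCl3. Of the leukocyte markers 2 of 4 reached 1 RPKM (17.2 to 22.9 RPKM in sum, CD3E at 0), and of the endothelial markers 0 of 4 did (0.01 to 0.14 RPKM in sum). The epithelial sum was higher in Ni-W and HCl3 than in UT and Ni-E, and its part in the results was not tested.

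The promoters of a few genes are shown because HSF1 sites are what the family is known to share. Windows of 300 bases (250 before and 50 after the start of the gene) were taken from RefSeq on the GRCh38.p14 build, and a window was found for 10 of the 10 genes, 14 windows in all. A pair of neighbouring heat shock units was searched as GAANNTTC and as TTCNNGAA, each of which reads the same on both strands. At least 1 of these pairs was present in a window of 7 of the 10 genes, and in 13.5% of 35116 RefSeq promoters. The 3 genes without a match were HSPE1, HSPH1 and BAG3, and bases outside the windows were not searched. The HSPD1 window with a match (chr2:197499791-197500090, minus strand) ended shortly before the HSPE1 window began (chr2:197500129-197500428, plus strand). A run of 3 alternating units, in which both pairs overlap by 1 unit, was present in 1 window each of HSPA8, HSP90AA1 and HSPD1, against 0.49% of all promoters. In both searches the 10 genes were counted by gene, some with several windows, and the background by window, so the shares are not like for like. The HSPA1A window (chr6:31815293-31815592, plus strand) and the HSPA1B window (chr6:31827488-31827787, plus strand) had 277 of 300 bases identical after alignment, and each held 1 pair, at -106 and -105 from the start of the gene. The HSPA8 window (chr11:123062087-123062386, minus strand) held 2 runs of 3 units, between -230 and -50, and the HSPH1 window (chr13:31162339-31162638, minus strand) held none. The sequences run 5′ to 3′ on the strand of the gene, and capitals mark the matched units.
HSPA1A: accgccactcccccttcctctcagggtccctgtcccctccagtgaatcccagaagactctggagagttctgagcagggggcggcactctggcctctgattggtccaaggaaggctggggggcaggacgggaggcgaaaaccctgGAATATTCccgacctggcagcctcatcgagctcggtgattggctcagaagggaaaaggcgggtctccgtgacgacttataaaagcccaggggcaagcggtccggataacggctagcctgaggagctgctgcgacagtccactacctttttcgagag
HSPA1B: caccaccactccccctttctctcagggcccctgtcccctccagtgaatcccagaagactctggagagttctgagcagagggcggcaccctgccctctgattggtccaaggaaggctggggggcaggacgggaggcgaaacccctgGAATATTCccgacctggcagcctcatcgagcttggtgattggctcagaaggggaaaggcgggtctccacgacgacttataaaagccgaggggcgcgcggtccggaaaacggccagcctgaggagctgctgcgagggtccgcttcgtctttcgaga
HSPA8: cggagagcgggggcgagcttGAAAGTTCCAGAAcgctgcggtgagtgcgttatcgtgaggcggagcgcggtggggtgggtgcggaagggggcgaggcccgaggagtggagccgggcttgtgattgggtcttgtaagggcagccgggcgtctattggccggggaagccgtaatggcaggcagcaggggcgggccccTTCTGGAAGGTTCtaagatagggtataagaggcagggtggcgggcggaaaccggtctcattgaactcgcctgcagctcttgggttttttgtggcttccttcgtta
HSPH1: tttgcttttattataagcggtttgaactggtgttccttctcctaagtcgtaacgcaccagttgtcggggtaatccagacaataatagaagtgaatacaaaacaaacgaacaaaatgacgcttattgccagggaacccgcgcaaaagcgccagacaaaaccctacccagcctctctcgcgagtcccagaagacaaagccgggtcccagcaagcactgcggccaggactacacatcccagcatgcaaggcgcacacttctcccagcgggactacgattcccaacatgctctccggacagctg
A match describes the letters of the window and not a bound site.

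The 10 genes took a small and variable part of the RNA. Together they held 0.703 and 0.787% of the counts of the UT libraries, 0.642 and 0.563% of Ni-E counts, 0.690 and 0.714% of Ni-W counts and 0.632 and 0.643% of HCl3 counts. Both Ni-E libraries were below both UT libraries, and so were both HCl3 libraries, whereas Ni-W overlapped UT. HSPA8 and HSP90AA1, which are made in unstressed cells, supplied between 67.7 and 73.6% of these counts in every library. On the RPKM scale, which allows for gene length, the mean over the 8 libraries was 844 for HSPA8 (rank 36 of all genes), 636 for HSP90AA1 (rank 55), 374 for HSPB1 (rank 107) and 225 for HSPD1 (rank 217). HSPE1 followed at 103, DNAJB1 at 82.8, HSPH1 at 76.4, BAG3 at 43.1, HSPA1A at 26.1 and HSPA1B at 21.2. Reads with several alignments had been removed, which could have lowered the values of HSPA1A and HSPA1B in particular. These are bulk libraries, in which fewer cells that express a gene and less RNA per cell cannot be told apart.

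**Figure D1:**
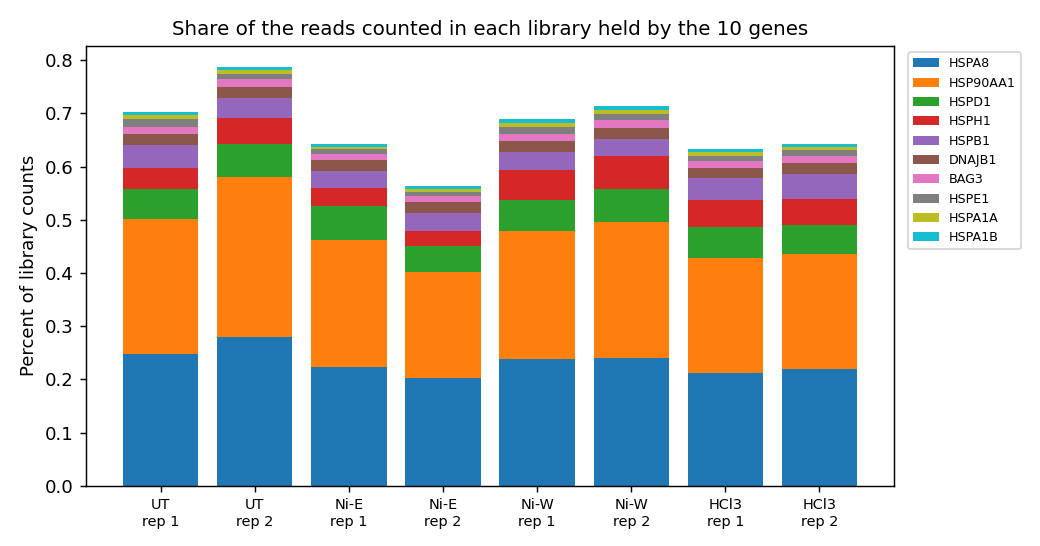
Stacked bars give the percent of all counts in each of the 8 libraries that fell on the 10 genes, with 1 colour per gene. The bars reach 0.703 and 0.787% in UT and 0.642 and 0.563% in Ni-E, and HSPA8 with HSP90AA1 fill most of every bar.

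Nickel exposure was examined first, by comparing Ni-E with UT. With nickel present, 8 of the 10 genes fell (adjusted P value under 0.05 in the DESeq2 test over all genes), and none rose. The decreases were modest, between 1.28-fold for HSPA8 and 1.48-fold for HSPH1, and the other two genes, HSPD1 and DNAJB1, did not pass the test. Over all 14478 genes tested, 5.52% fell at this threshold and 11.6% changed in either direction. The median log2 fold change of the 10 genes was -0.39, with 10 of 10 below 0, against a median of -0.00 over all genes. When a change of at least 1.5-fold was also required, which defined the calls, 0 of the 10 genes were called by DESeq2 or by edgeR, against 5.80% of all genes, and 8 of the 10 had an unadjusted P value under 0.05, against 23.4%.

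The inducible HSP70 genes HSPA1A and HSPA1B encode almost the same protein. HSPA1A was measured at 27.4 and 28.2 RPKM for UT, 19.1 and 20.5 for Ni-E, 31.3 and 33.2 for Ni-W, and 23.7 and 25.0 for HCl3. The groups did not overlap, in the order Ni-W, UT, HCl3 and Ni-E, but of neighbours in this order HCl3 and Ni-E alone passed the test. HSPA1A fell in Ni-E by 0.54 ± 0.12 on the log2 scale (± SE, n = 2 libraries per group, DESeq2 adjusted P = 0.000244). HSPA1B was measured at 22.0 and 22.3 RPKM for UT, 17.4 and 17.9 for Ni-E, 24.0 and 25.8 for Ni-W, and 19.4 and 20.9 for HCl3. Its groups stood in the same order without overlap, with no neighbours that passed the test, and it fell in Ni-E by 0.38 ± 0.12 (DESeq2 adjusted P = 0.0215). The pair could be separated only in part. Of the 50-base windows of the HSPA1A transcript, 75.1% occur at 2 or more places of the genome, as do 71.6% of those of HSPA1B, and reads with several alignments had been removed. Summed over both genes, the level was 49.4 and 50.5 RPKM for UT, 36.5 and 38.5 for Ni-E, 55.3 and 59.0 for Ni-W, and 43.2 and 45.9 for HCl3, which kept the order of the groups. The removed reads are missing from this sum too, so it could be too low in every group.

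HSPA8, the constitutive HSP70 of the cytosol, was measured at 892 and 1018 RPKM for UT, 814 and 731 for Ni-E, 860 and 876 for Ni-W, and 767 and 795 for HCl3. The UT libraries were the highest, and the ranges of Ni-E and HCl3 overlapped. HSPA8 fell in Ni-E by 0.36 ± 0.11 on the log2 scale (DESeq2 adjusted P = 0.0204). HSP90AA1, the stress-responsive HSP90 of the cytosol, was at 669 and 799 RPKM for UT, 636 and 525 for Ni-E, 633 and 676 for Ni-W, and 574 and 575 for HCl3. It fell in Ni-E by 0.39 ± 0.13 (DESeq2 adjusted P = 0.0281), although its replicates were 0.26 apart on the log2 scale in UT and 0.32 in Ni-E, with the second Ni-E library the lower. HSP90AB1, the constitutive partner of HSP90AA1, was at 581 and 664 RPKM in UT and at 591 and 516 in Ni-E, a difference of -0.22 ± 0.12 that did not pass the test (DESeq2 adjusted P = 0.233). In Ni-W against UT HSP90AB1 did not pass either (-0.10 ± 0.10), but in HCl3 against UT it fell by 0.31 ± 0.09 (DESeq2 adjusted P = 0.00535). It was also lower in HCl3 than in Ni-W, at -0.21 ± 0.07 (DESeq2 adjusted P = 0.0144). HSPA8 exceeded HSPA1A and HSPA1B together by a ratio of 18.1 and 20.2 for UT, 22.3 and 19.0 for Ni-E, 15.5 and 14.8 for Ni-W and 17.8 and 17.3 for HCl3. The ratio was thus lowest in both Ni-W libraries, and UT and Ni-E overlapped.

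The nucleotide exchange factor HSPH1 was measured at 64.8 and 81.6 RPKM for UT, 55.4 and 47.5 for Ni-E, 91.8 and 103.8 for Ni-W, and 84.5 and 81.5 for HCl3. The Ni-E libraries were the lowest and the Ni-W libraries the highest, and HCl3 overlapped UT by a narrow margin. HSPH1 fell in Ni-E by 0.56 ± 0.13 on the log2 scale (DESeq2 adjusted P = 0.000821). BAG3, which links HSP70 to autophagy and to small heat shock proteins, was at 45.1 and 47.1 RPKM for UT, 36.7 and 35.5 for Ni-E, 44.4 and 47.4 for Ni-W, and 43.7 and 44.6 for HCl3. The Ni-E libraries stood below all others, and BAG3 fell there by 0.41 ± 0.11 (DESeq2 adjusted P = 0.00484). DNAJB1, the main J-domain partner of inducible HSP70, was the steadiest gene, with 82.8 and 82.1 RPKM for UT, 84.4 and 81.7 for Ni-E, 82.9 and 85.9 for Ni-W, and 79.9 and 82.7 for HCl3. Its log2 difference between Ni-E and UT was -0.05 with a 95% interval of -0.25 to 0.16, and its group means spanned 0.07, a smaller range than in all but 0.50% of 12015 expressed genes.

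HSPB1 was measured at 433 and 379 RPKM for UT, 317 and 336 for Ni-E, 335 and 316 for Ni-W, and 413 and 463 for HCl3. Ni-E and Ni-W lay together below UT and HCl3, and HSPB1 fell in Ni-E by 0.37 ± 0.11 on the log2 scale (DESeq2 adjusted P = 0.0119). The mitochondrial pair was less certain. HSPE1 was at 138.6 and 92.1 RPKM for UT, 89.9 and 77.4 for Ni-E, 128.2 and 103.9 for Ni-W, and 93.1 and 101.4 for HCl3, so the UT libraries were 0.58 apart on the log2 scale, farther than the difference between the groups. HSPE1 fell in Ni-E by 0.52 ± 0.17 (DESeq2 adjusted P = 0.0236), but without the first UT library the difference was -0.20 (DESeq2 adjusted P = 0.579). HSPD1 was at 211 and 245 RPKM for UT, 248 and 192 for Ni-E, 224 and 241 for Ni-W, and 221 and 215 for HCl3. The UT libraries of HSPD1 enclosed those of Ni-W and HCl3 and lay within those of Ni-E, and its log2 difference between Ni-E and UT was -0.11 (95% interval -0.38 to 0.16). HSPD1 and HSPE1 lie head to head on chromosome 2 and overlap by 278 bases, and the read-through gene HSPE1-MOB4 covers HSPE1 on the same strand with 725 to 2420 reads, so reads could have been assigned to either.

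**Figure D2:**
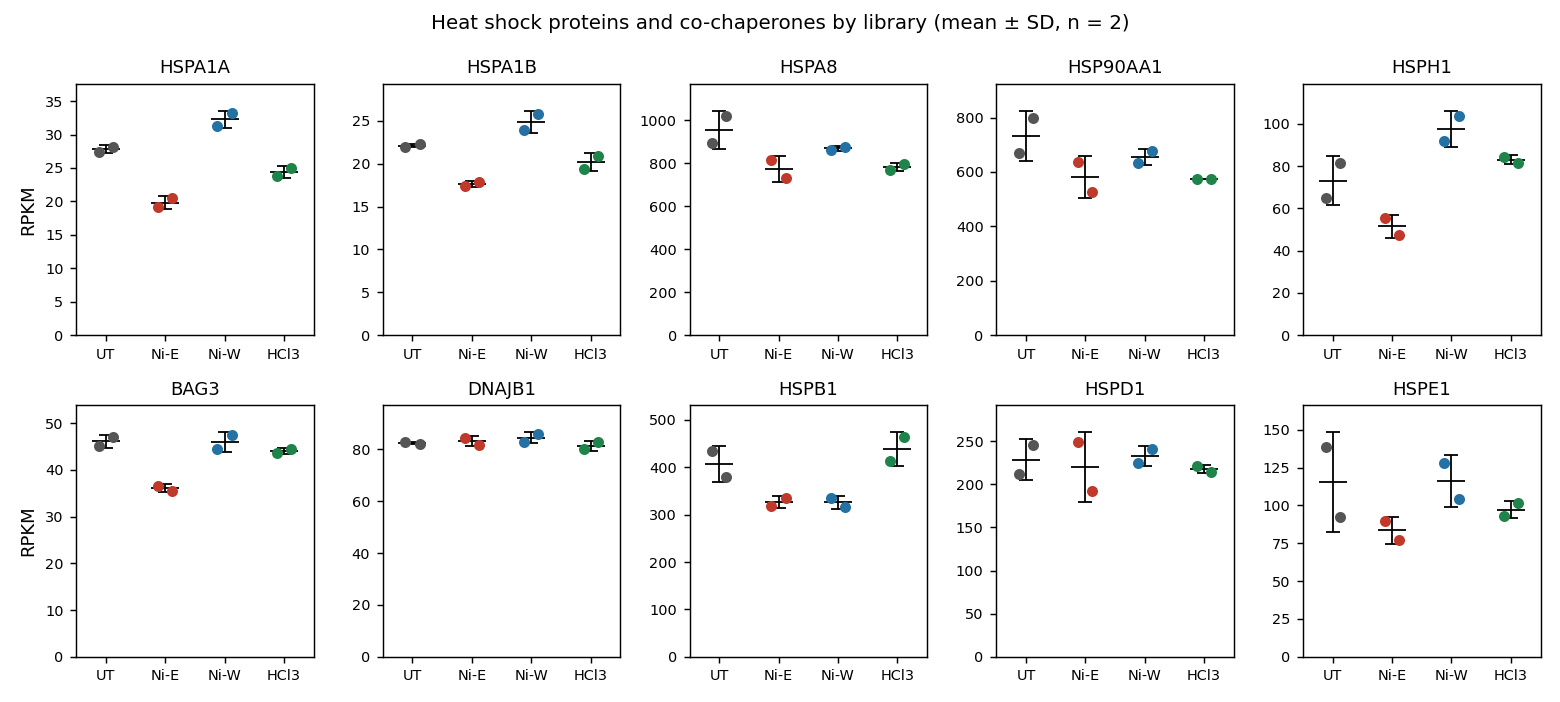
Each panel plots the RPKM of 1 gene in the 8 libraries (points, 2 per group) with the group mean (line) and SD (bars) on an axis that starts at 0. The Ni-E points of HSPA1A, HSPA1B, HSPH1 and BAG3 lie below all others, those of DNAJB1 are level with the rest, and the UT points of HSPE1 lie far apart, at 138.6 and 92.1 RPKM.

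Of the 8 genes that fell in Ni-E, 5 had a matched pair of heat shock units in a promoter window (HSPA1A, HSPA1B, HSPA8, HSP90AA1 and HSPB1). The other 3 had none in the bases searched, and HSPD1 and DNAJB1, which did not pass the test, both had a match. The count of 8 genes became 5 without the first UT library, 3 without the second, 2 without the first Ni-E library and 1 without the second, and it was 4 with edgeR. Without single libraries, when 1 group has a single library, the log2 difference stayed between -0.58 and -0.51 for HSPA1A, -0.39 and -0.37 for HSPA1B, and -0.45 and -0.37 for BAG3. It ranged more widely for HSPH1 (-0.72 to -0.39), HSP90AA1 (-0.55 to -0.24), HSPA8 (-0.46 to -0.26) and HSPB1 (-0.47 to -0.27). HSPE1 moved most, from -0.79 to -0.20, and HSPD1 changed sign, from -0.32 to 0.08. The log2 difference between the UT libraries fell with transcript GC content (Spearman's rho = -0.557 over 11902 genes, which are not independent replicates), and the 10 transcripts ranged from 36.9% GC (HSPE1) to 64.3% (HSPB1). After trends with GC content and length had been removed, 8 genes still fell and 2 of them passed 1.5-fold, HSPA1A (-0.74) and HSPB1 (-0.63).

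Ni-W was then compared with UT to ask whether the genes differed long after nickel had been removed. HSPH1 rose and HSPB1 fell, and the other 8 genes did not pass the test. HSPH1 was higher by 0.38 ± 0.12 on the log2 scale (DESeq2 adjusted P = 0.00950), a 1.30-fold increase, with both Ni-W libraries above both UT libraries. HSPB1 was lower by 1.28-fold, at -0.35 ± 0.11 (DESeq2 adjusted P = 0.00399), again without overlap. These 2 of 10 compare with 31.1% of the 15826 genes tested, and with the 1.5-fold threshold the numbers were 0 of 10 (DESeq2 and edgeR) and 15.7%. At an unadjusted P value under 0.05 they were 2 of 10 and 38.9%. The median log2 difference of the 10 genes was -0.02, against 0.01 over all genes.

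For the genes that had fallen in Ni-E, the intervals of the difference between Ni-W and UT were narrow in most cases. The log2 difference was 0.18 (95% interval -0.04 to 0.40) for HSPA1A, 0.14 (-0.09 to 0.36) for HSPA1B and -0.04 (-0.25 to 0.17) for BAG3. HSPA8 was at -0.17 (-0.37 to 0.03) and HSP90AA1 at -0.20 (-0.42 to 0.02). HSPE1 was at -0.03, but its interval of -0.66 to 0.61 left room for a change past 1.5-fold either way. For HSPD1 and DNAJB1, the intervals ran from -0.22 to 0.20 and from -0.19 to 0.19. The calls for HSPH1 and HSPB1 were lost when single libraries were left out, with HSPH1 at 0.23 (DESeq2 adjusted P = 0.208) without the first UT library and 0.29 (0.313) without the second Ni-W library, and HSPB1 at -0.26 (0.110), -0.39 (0.0914) and -0.32 (0.185) without the first UT, the first Ni-W and the second Ni-W library.

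Ni-W was next set directly against Ni-E. HSPA1A, HSPA1B, HSPH1, HSPE1 and BAG3 rose, none fell, and HSPA8, HSP90AA1, HSPB1, HSPD1 and DNAJB1 did not pass the test. HSPH1 was 1.91-fold higher in Ni-W, at 0.93 ± 0.11 on the log2 scale (DESeq2 adjusted P = 5.45e-16), and HSPA1A was 1.63-fold higher, at 0.71 ± 0.11 (DESeq2 adjusted P = 3.82e-10). These were the 2 genes called at 1.5-fold, against 20.5% of the 15989 genes tested, and the 5 that rose compare with 19.8% of genes that rose. HSPA1B was higher by 0.50 ± 0.11 (DESeq2 adjusted P = 3.19e-05), HSPE1 by 0.48 ± 0.13 (DESeq2 adjusted P = 0.000719) and BAG3 by 0.35 ± 0.10 (DESeq2 adjusted P = 0.00158). HSPB1 had a log2 difference of 0.00 with a 95% interval of -0.17 to 0.17, but of 0.29 (DESeq2 adjusted P = 0.00136) once GC and length trends were removed.

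HSPH1 and HSPA1A passed both thresholds without each of the 4 libraries in turn, at 0.80 to 1.06 and 0.66 to 0.75, whereas HSPE1 and BAG3 missed the adjusted P threshold without the second Ni-E library, which left 3 of the 5 genes, and each missed it without 1 of the Ni-W libraries (HSPE1 the first, BAG3 the second). With GC and length trends removed, HSPA1B (0.59) and HSPE1 (0.62) also passed 1.5-fold, which gave 4 genes.

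HCl3 was compared with UT, Ni-E and Ni-W in the same way. Against UT, HSPA8 fell by 0.34 ± 0.09 (DESeq2 adjusted P = 0.00153) and HSP90AA1 by 0.41 ± 0.10 (DESeq2 adjusted P = 0.000380), so that the most abundant chaperones of the cytosol were 1.27-fold and 1.33-fold lower. The remaining 8 genes did not pass the test, among them HSPA1A at -0.24 ± 0.10 (DESeq2 adjusted P = 0.0602), HSPH1 at 0.13 (95% interval -0.09 to 0.35) and HSPB1 at 0.05 (-0.15 to 0.26). These 2 of 10 compare with 31.4% of the 15766 genes tested, and at 1.5-fold the numbers were 0 of 10 (DESeq2 and edgeR) and 14.8%. At an unadjusted P value under 0.05 they were 3 of 10 and 39.6%. HSPA1A passed with edgeR (adjusted P = 0.0364) and in 1 DESeq2 fit of all 8 libraries (0.0337). Removal of GC and length trends put it at -0.40 (DESeq2 adjusted P = 3.36e-05) and HSPA1B at -0.33 (0.00101). HSPA1A missed the threshold in DESeq2 with TMM size factors (0.0574), the low-count filter (0.0596), the replicate block (0.262) or the crossed block (0.101). HSPA1B missed it in those fits too, with edgeR (0.0965) and in the fit of all 8 libraries (0.136). The count of 2 became 0 without either HCl3 library, although HSPA8 (-0.31 and -0.37) and HSP90AA1 (-0.40 and -0.41) kept their size, and it was 4 without the second UT library and 7 after removal of GC and length trends.

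Against Ni-E, 4 genes rose in HCl3 and none fell, next to 18.4% of the 15953 genes tested that rose. HSPH1 was 1.60-fold higher, at 0.68 ± 0.09 (DESeq2 adjusted P = 4.67e-12), and was the 1 gene called at 1.5-fold, against 17.1% of all genes. Without the second Ni-E library it was at 0.55 and under that fold. HSPB1 was higher by 0.41 ± 0.08 (DESeq2 adjusted P = 4.63e-06), HSPA1A by 0.29 ± 0.10 (DESeq2 adjusted P = 0.0131) and BAG3 by 0.28 ± 0.09 (DESeq2 adjusted P = 0.00499). The count of 4 became 2 without the first HCl3 library and 1 without the second, and HSPA1A also missed the threshold without the first Ni-E library (0.25, DESeq2 adjusted P = 0.0817). HSPE1 was at 0.20 and did not pass the test, but was at 0.49 (DESeq2 adjusted P = 8.94e-06) with GC and length trends removed.

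HCl3 and Ni-W shared a treatment text and still differed in 6 of the 10 genes, against 16.6% of the 14956 genes tested. HSPA1A (-0.42 ± 0.09, DESeq2 adjusted P = 5.2e-05), HSPA1B (-0.32 ± 0.09), HSPE1 (-0.27 ± 0.10), HSPH1 (-0.25 ± 0.08) and HSP90AA1 (-0.20 ± 0.07) were lower in HCl3. For HSPE1 the difference was -0.13 (DESeq2 adjusted P = 0.356) with GC and length trends removed and -0.12 (0.578) without the first Ni-W library. HSPB1 was higher in HCl3 by 0.41 ± 0.08 (DESeq2 adjusted P = 4.93e-06), with the 4 libraries not overlapping. None of these differences reached 1.5-fold in DESeq2 or edgeR, against 4.77% of all genes, and 7 of the 10 had an unadjusted P value under 0.05, against 26.7%. The count of 6 became 3 without the second Ni-W library, 1 without either HCl3 library and 3 with all 8 libraries in 1 fit. Comparisons against the same group share its libraries, so their values stand side by side and are not independent.

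**Figure D3:**
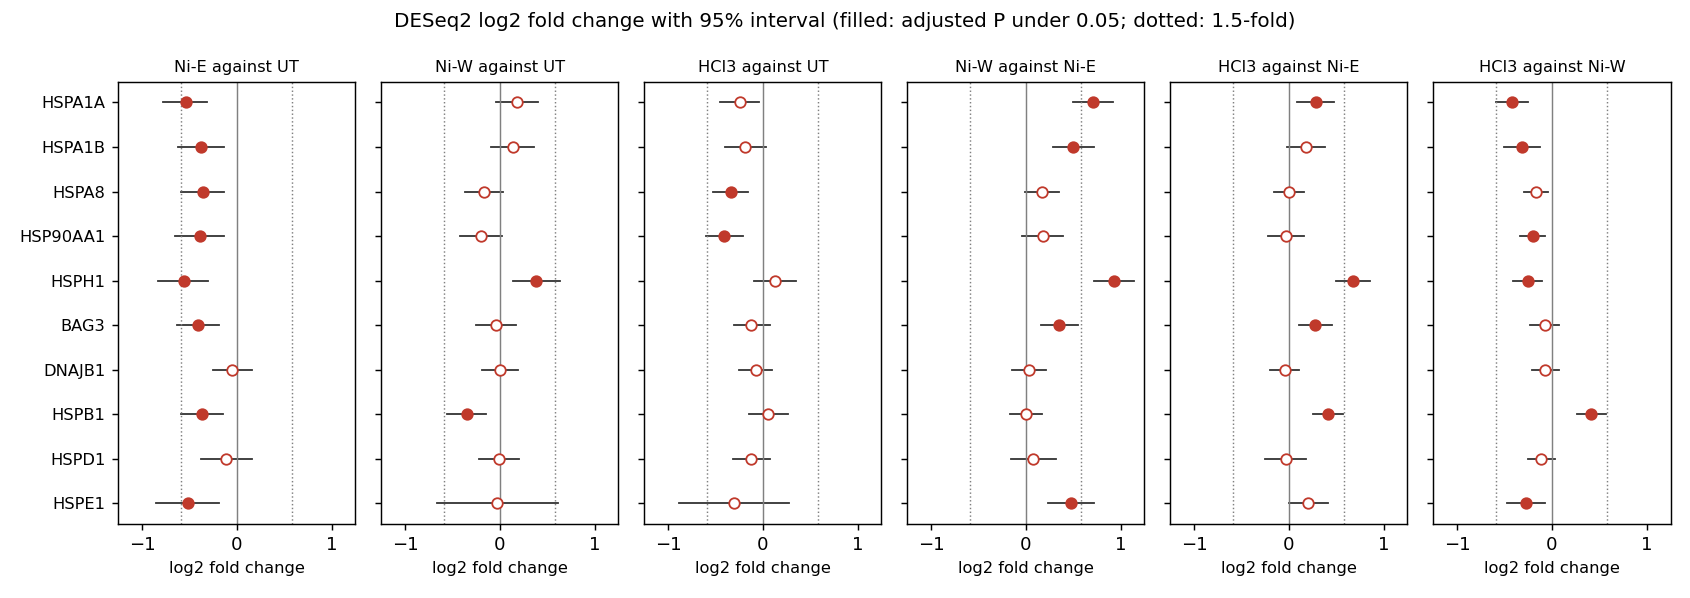
For each of the 6 comparisons, points give the log2 fold change of the 10 genes with 95% intervals, filled where the DESeq2 adjusted P value was under 0.05, and dotted lines mark 1.5-fold. In Ni-E against UT 8 filled points lie to the left of 0, and in Ni-W against Ni-E those of HSPA1A (0.71) and HSPH1 (0.93) lie beyond the dotted line.

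Seen over the 4 groups, the genes differed in how far they moved. The range of the group means on the log2 scale was 0.94 for HSPH1, 0.72 for HSPA1A, 0.51 for HSPA1B and 0.49 for HSPE1, and 0.35 to 0.42 for HSPA8, HSP90AA1, BAG3 and HSPB1. HSPD1 spanned 0.12 and DNAJB1 0.07. Even the widest, HSPH1, was exceeded by some of the 12015 expressed genes, since 84.3% of them had a smaller range, and for HSPA1A the share was 73.9%. The genes nearest to HSPH1 in profile over the 8 libraries were WBP4, CRIM1 and FGF2, with root-mean-square differences of 0.063, 0.076 and 0.083 on the log2 scale. Those nearest to HSPA1A were SYNRG (0.055), LIMD1 (0.058) and MGC45800 (0.059), and those nearest to HSPA1B were PDCD4 (0.052), RC3H1 (0.054) and LRP8 (0.056).

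Genes around HSPH1 moved with it in part. HSPH1 lies on chromosome 13 between 31709111 and 31736525 (hg19, minus strand), and the 27 expressed genes within 5 Mb on either side had a median log2 difference of 0.39 in Ni-W against UT, 0.30 in HCl3 against UT, 0.63 in Ni-W against Ni-E and -0.10 in Ni-E against UT. The values of HSPH1 in these comparisons were 0.38, 0.13, 0.93 and -0.56. Around HSPD1 and HSPE1, 39 genes had medians of 0.38, 0.34, 0.48 and -0.11, while HSPD1 itself was at -0.01, -0.12, 0.08 and -0.11. The part of the neighbourhood in the values of HSPH1 was not tested. HSPA1A (chr6:31783291-31785719) and HSPA1B (chr6:31795512-31798031) lie close together on the plus strand in the same build. The other genes lie at chr11:122928200-122933043 (HSPA8, minus strand), chr14:102547075-102606086 (HSP90AA1, minus), chr7:75931875-75933614 (HSPB1, plus), chr2:198351308-198364998 (HSPD1, minus), chr2:198364721-198368187 (HSPE1, plus), chr19:14625582-14629201 (DNAJB1, minus) and chr10:121410882-121437329 (BAG3, plus).

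The wider chaperone network was read from a list of 75 further genes written by function, of which 71 were tested in Ni-E against UT and 72 in each of the other two comparisons with UT. In Ni-E, 4 of these genes rose and 4 fell, beside 6.08 and 5.52% of all genes, with a median log2 fold change of -0.07, and 3 were called at 1.5-fold (1 without the second UT or the second Ni-E library), next to 5.80% of all genes. HSPB8, the small heat shock protein that works with BAG3, was at 1.59 and 1.70 RPKM in UT and at 7.28 and 7.46 in Ni-E, a rise of 2.11 ± 0.21 on the log2 scale (DESeq2 adjusted P = 7.32e-20), while BAG3 itself fell. DNAJB4 fell by 0.61 ± 0.14. DNAJA4 fell by 2.16 ± 0.63 from 0.470 and 0.480 RPKM to 0.0900 and 0.140. This fall of DNAJA4 rested on few reads, 56 and 40 in UT and 10 and 14 in Ni-E, with a mean normalised count of 30.8. The factor HSF1 was at 38.8 and 36.1 RPKM in UT and 40.9 and 39.8 in Ni-E, and HSF2 at 10.9 and 11.5 and at 13.6 and 13.1, and neither passed the test in any comparison with UT. HSPA6, a HSP70 gene that is almost silent without heat shock, was between 0.0200 and 0.120 RPKM in every library.

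After wash-out more of the list differed. In Ni-W 9 genes rose and 27 fell, with a median of -0.16, and in HCl3 8 rose and 30 fell, with a median of -0.20. Over all genes 17.5% rose and 13.6% fell in Ni-W, and 17.1% rose and 14.3% fell in HCl3. Of the 8 subunits of the chaperonin TRiC, which folds actin and tubulin, 5 fell in Ni-W (TCP1, CCT2, CCT4, CCT7 and CCT8, between -0.43 and -0.34) and 6 in HCl3, and none passed the test in Ni-E. Among the 13 co-chaperones of HSP90, 6 fell in Ni-W and 8 in HCl3, while UNC45A rose in both (0.51 ± 0.11 and 0.47 ± 0.10). Of the 8 genes of BAG proteins and nucleotide exchange factors, 6 fell in Ni-W and 5 in HCl3. BAG2 fell in both, at -0.81 ± 0.12 and -0.86 ± 0.11, and the mitochondrial HSP70 gene HSPA9 fell in both, at -0.47 ± 0.10 and -0.53 ± 0.09. HSPA12A (-1.14 ± 0.18), BAG1 (-0.79 ± 0.14), DNAJA1 (-0.61 ± 0.10) and FKBP5 (-0.61 ± 0.12) fell past 1.5-fold in Ni-W. CHORDC1 (-0.72 ± 0.11) did so in HCl3. HSPA5, the HSP70 of the endoplasmic reticulum, did not pass the test against UT (0.22 ± 0.09 and 0.08 ± 0.08). The highest fold was that of DNAJA4, a J-domain protein, with 8.70 and 9.91 RPKM in Ni-W and 7.68 and 8.03 in HCl3, up by 4.37 ± 0.22 and 4.11 ± 0.22 (DESeq2 adjusted P = 6.55e-86 and 3.61e-78). Its UT level was low, at 0.47 and 0.48 RPKM (56 and 40 reads). At 1.5-fold, 8 genes of the list were called in Ni-W and 4 in HCl3, next to 15.7 and 14.8% of all genes, and without the first UT library the HCl3 count was 9.

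**Figure D4:**
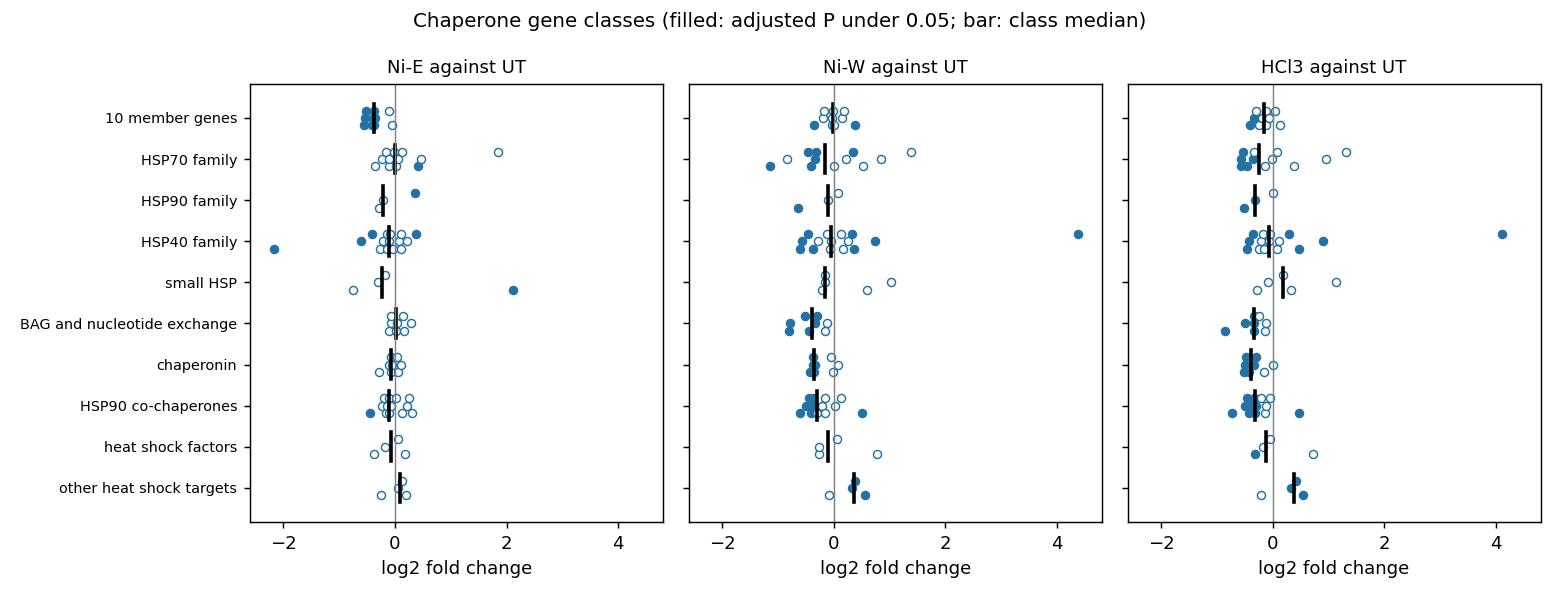
Points give the log2 fold change against UT of the 10 genes and of 9 classes of the wider list in Ni-E, Ni-W and HCl3, filled where the DESeq2 adjusted P value was under 0.05, and bars give class medians. The 10 genes lie left of 0 in Ni-E (median -0.39), while 7 of the 8 chaperonin subunits lie left of 0 in Ni-W and HCl3 (medians -0.35 and -0.38).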

How the data were processed

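RNA-Seq libraries had been prepared from total RNA with an Illumina TruSeq kit, and the authors aligned reads to hg19 with STAR 2.4, removed multi-hits and counted reads per RefSeq gene with BioWardrobe. The deposited values were raw read counts per gene and RPKM derived from them by the authors, without pooling. Whether counting used strand is not given in the sources used here. Groups came from the labels, and replicates from the repeat suffix. As nothing says whether the repeats came from separate cultures beyond the term biological replicate, P values speak for these libraries only. DESeq2 also draws the dispersion of each gene toward a trend over all genes, so P does not measure the spread of 1 gene alone. HSPE1 in Ni-E against UT had a DESeq2 adjusted P of 0.0236 in the pair and of 0.135 with all 8 libraries in 1 fit.

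Counts were tested for each pair of groups (4 libraries, 6 pairs) with DESeq2 1.42.0 in R 4.3.3 (two-sided Wald test, default independent filtering, Benjamini-Hochberg adjustment over all genes tested). Genes were called at an adjusted P value under 0.05 and a change of at least 1.5-fold, as in the study's methods. A single gene compared by permutation could not reach a P value under 0.333 with 2 libraries against 2. RPKM values were used for levels only. Expressed genes had a mean normalised count of at least 50. All 10 members are named. From the wider list the rule named HSF1, HSF2, HSP90AB1, HSPA5, HSPA9 and HSPA6. It added up to 4 called genes per class with a mean normalised count of at least 50. DNAJA4 was named in Ni-E against UT although its count of 30.8 there was under that minimum. The TRiC subunits and UNC45A were named after their values were seen. The members, lists and alternatives were chosen with earlier results of these data known.

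Alternatives were edgeR 4.0.16 (quasi-likelihood test), TMM size factors, all 8 libraries in 1 fit, a mean count of at least 10, removal of GC and length trends through normalization factors, the replicate suffix as a block, no fold threshold, and each library left out in turn. The centring of the GC trend, the crossed block and the counts with no fold threshold under each setting were set after the data were seen. GC content, from GENCODE transcripts, was known for 98.3% of 13856 genes. On simulated Ni-E and UT counts for 25411 genes with 200 changed 2-fold, DESeq2 recovered 193 with 2 false calls and edgeR 199 with 2. With a planted GC trend DESeq2 recovered 149 with 1934 false calls, and 194 with 3 once the trend was removed. Windows of 50 bases were searched for exact copies in hg38. Plots were made in Python 3.11.15 with matplotlib 3.10.9. Chromatin data were not analysed here.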

Additional observations from a re-analysis of the deposited data

Results flagged for a closer look

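HCl3 and Ni-W, which carry the same treatment text, differed in their effect relative to UT for 6 of the 10 genes. The count comes from the direct DESeq2 test of HCl3 against Ni-W, in which 16.6% of the 14956 genes tested differed. None of the 6 reached 1.5-fold, against 4.77% of all genes. With all 8 libraries in 1 fit, HSP90AA1, HSPH1 and HSPE1 missed the adjusted P threshold. The log2 difference of HCl3 minus Ni-W was -0.42 for HSPA1A, -0.32 for HSPA1B, -0.20 for HSP90AA1, -0.25 for HSPH1, -0.27 for HSPE1 and 0.41 for HSPB1. Against UT, HSPB1 was at 0.05 in HCl3 and -0.35 in Ni-W, and HSPE1 missed the threshold with edgeR (adjusted P = 0.0648). Groups of 2 libraries were too small to be searched for outlying libraries.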

How the results depend on the processing

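With 2 libraries per group, leaving out a library leaves 1 that DESeq2 assumes to vary like the rest. TMM size factors and the filter on low counts moved none of the 60 member values across the threshold, edgeR moved 6 and the fit of all 8 libraries 6. Members called at 1.5-fold numbered 2 in Ni-E against UT and 4 in Ni-W against Ni-E after GC and length trends were removed, with or without the replicate block, against 0 and 2. With no fold threshold they were 8, 2, 2, 5, 4 and 6 in the order Ni-E, Ni-W and HCl3 against UT, Ni-W and HCl3 against Ni-E, and HCl3 against Ni-W. Without single libraries they ranged from 0 to 1, 0 to 0, 0 to 0, 2 to 3, 0 to 1 and 0 to 0. Members at the adjusted P threshold alone ranged, without single libraries, from 1 to 5, 0 to 2, 0 to 4, 3 to 7, 1 to 6 and 1 to 6. In Ni-E against UT they were 4 with edgeR. In HCl3 against UT they were 7 with the trends removed, and in HCl3 against Ni-W 3 with all libraries in 1 fit. The replicate suffix is only a number shared by libraries, and deviations of same-suffix libraries had an r between -0.159 and 0.221. With the replicate block, members past the adjusted P threshold were 3 in Ni-E against UT, 4 in Ni-W against UT and 2 in HCl3 against Ni-W, and with block and trend removal 4, 4, 5 (HCl3 against UT) and 3. A crossed block, used for the 3 pairs with an r under -0.1, moved 2 of 30 member values. Wider-list genes called in Ni-E against UT were 1 with block and trend removal and 1 to 2 without single libraries, against 3. In HCl3 against UT they ranged from 3 to 9 and in Ni-W against UT from 6 to 11 without single libraries, and with no fold threshold 8, 36 and 38 genes passed in Ni-E, Ni-W and HCl3. All genes called in Ni-E against UT were 840, and 491 with the block, 396 with block and trend removal and 356 without the first Ni-E library, and 1679, 4917, 4945, 6274, 5994 and 2476 genes passed with no fold threshold, against 840, 2484, 2333, 3276, 2734 and 713. In HCl3 against Ni-W 455 genes were called with the block and 449 with block and trend removal, and 327 to 458 without the first Ni-W or either HCl3 library. Without the first Ni-W library 1516 genes were called in Ni-W against UT, and without an HCl3 library 1412 and 1339 in HCl3 against UT and 1757 in HCl3 against Ni-E (first library). HSPD1 in HCl3 against Ni-E was -0.03 and turned to 0.19 (DESeq2 adjusted P = 0.0142) without the first Ni-E library and to -0.23 without the second. The cause was not tested.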

Other observations

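Other genes of the wider list had patterns of their own. TRAP1, the HSP90 of mitochondria, was at 67.3 and 64.9 RPKM for UT, 91.6 and 83.6 for Ni-E, 44.3 and 42.7 for Ni-W, and 46.1 and 49.4 for HCl3, so that it rose with nickel present (0.36 ± 0.11, DESeq2 adjusted P = 0.0177) and fell after wash-out (-0.64 ± 0.10 in Ni-W, DESeq2 adjusted P = 1.01e-08, and -0.51 ± 0.10 in HCl3). DNAJB2 was at 18.5 and 17.3 RPKM in UT and at 15.8 and 18.9 in Ni-E, and rose to 30.1 and 30.8 in Ni-W and to 35.5 and 35.2 in HCl3 (0.73 ± 0.11 and 0.90 ± 0.10). Of the heat shock targets outside the chaperones, SERPINH1 and ZFAND2A rose in both Ni-W and HCl3, by 0.33 and 0.56 and by 0.33 and 0.54 on the log2 scale, and were named after their values were seen. The ratio of HSPD1 to HSPE1, whose proteins work as a pair, was 1.53 and 2.66 for UT, 2.76 and 2.48 for Ni-E, 1.75 and 2.32 for Ni-W, and 2.37 and 2.12 for HCl3, so that the UT libraries lay almost as far apart as the lowest and the highest of all 8.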
